A study of Rattus norvegicus with 18 samples.

Results

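The 5-hydroxymethylcytosine (5hmC) landscape of vitamin C treated Schwann cells was read from 6 of the 18 libraries of the series, 3 hMeDIP libraries and 3 genomic input libraries of the samples labelled VitC. All 215951 merged peaks of the deposited list were used, so every region of the series is a member, and no untreated library entered a comparison. The cells were primary rat Schwann cells at passage 3 that had received vitamin C. The dose and the length of treatment are not given in the labels, and they do not say whether the 3 samples were grown or taken from animals separately. A p-value therefore reflects only how far these samples spread, and that spread may be technical. In hMeDIP, DNA fragments that carry 5hmC are captured with an antibody (here with an Active Motif kit) and sequenced. Input is the same kind of genomic DNA sequenced without capture. The measure throughout is enrichment, the share of a library's counted reads that falls in a peak or a class of peaks in hMeDIP, divided by that share in input.

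5hmC is made from 5-methylcytosine by the TET dioxygenases, which need iron and 2-oxoglutarate, and vitamin C is known to raise TET activity by keeping the iron reduced. The mark is both an intermediate of active DNA demethylation and a stable base, known from many tissues to be common in the bodies of active genes and at enhancers and scarce at active CpG-rich promoters. Schwann cells are the glia of peripheral nerves, and in culture they need vitamin C to assemble a basal lamina and to wrap axons in myelin.

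The sequence below the mark was examined at gene starts, since cytosine followed by guanine (CG) is the main substrate of the modification in differentiated cells. RefSeq promoter windows (build GRCr8, 300 bases around each start) with 1 window per symbol were found for 9289 genes of the peak list and were split into 5 groups of about equal size by the number of CG per base. From the group with the fewest CG to that with the most, 9.16%, 7.56%, 3.83%, 3.79% and 3.63% of the genes held a peak labelled ProximalPromoter, the class within 250 bases of a start. Among genes of the list, such peaks were therefore more often listed at CG-poor starts. A gene entered these shares only if it had a listed peak of some class. The part of this choice in the order of the groups was not tested. Where a peak was listed, its enrichment did not follow the same order, with median log2 ratios of 2.21, 2.28, 2.38, 2.14 and 2.18 in the same order of groups. Peaks farther out, in the classes up to 3000 bases from a start, were listed for 63.6% of genes in the group with the fewest CG, for 55.3% to 59.5% in the next 3 groups and for 60.03% in the group with the most. Only 520 of the 1210 genes with a proximal peak could be matched to a window, and the RefSeq start need not be the start that the list used. The 4 sequences below are the 250 bases before the RefSeq start, in the direction of the gene, for the proximal peaks of highest log2 ratio in the group with the fewest CG (Runx1 and Tm4sf19) and in that with the most (Slc39a6 and Tecpr1). They are shown to give the CG content at both ends of this grouping, with CG in capitals. They were picked as the highest of their groups, and enrichment was measured over wider peaks, not over these 250 bases. CG reads the same on both strands, and 99.0% of all windows hold at least 1.
Runx1: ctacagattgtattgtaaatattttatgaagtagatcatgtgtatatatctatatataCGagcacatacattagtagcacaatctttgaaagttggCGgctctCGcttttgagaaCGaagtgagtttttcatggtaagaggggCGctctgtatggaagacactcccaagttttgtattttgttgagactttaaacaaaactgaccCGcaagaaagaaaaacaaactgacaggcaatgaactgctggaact
Tm4sf19: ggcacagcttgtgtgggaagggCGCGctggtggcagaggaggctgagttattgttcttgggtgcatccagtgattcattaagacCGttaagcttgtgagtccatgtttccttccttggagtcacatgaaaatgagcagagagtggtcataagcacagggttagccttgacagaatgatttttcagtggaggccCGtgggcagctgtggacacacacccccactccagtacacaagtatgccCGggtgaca
Slc39a6: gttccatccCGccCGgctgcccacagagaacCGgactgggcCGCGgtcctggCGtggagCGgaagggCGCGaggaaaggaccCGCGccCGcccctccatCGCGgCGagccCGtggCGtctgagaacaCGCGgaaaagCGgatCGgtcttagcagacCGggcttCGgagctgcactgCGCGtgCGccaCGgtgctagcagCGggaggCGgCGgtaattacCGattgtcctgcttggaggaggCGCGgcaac
Tecpr1: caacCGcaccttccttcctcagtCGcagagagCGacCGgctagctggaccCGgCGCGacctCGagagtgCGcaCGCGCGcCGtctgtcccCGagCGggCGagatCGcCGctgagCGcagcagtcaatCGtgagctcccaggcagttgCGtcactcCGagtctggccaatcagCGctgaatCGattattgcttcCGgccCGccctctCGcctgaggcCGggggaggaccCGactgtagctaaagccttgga
In GRCr8 these are chr11:45421326-45421575 (minus strand), chr11:81889647-81889896 (minus strand), chr18:16160164-16160413 (minus strand) and chr12:15505104-15505353 (plus strand). The Runx1 stretch holds 6 CG, the Tm4sf19 stretch 5, the Slc39a6 stretch 33 and the Tecpr1 stretch 29.

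Runx1 encodes a Runt-family transcription factor, and the peak at its start (chr11:33001667-33003937 in the coordinates of the list) had 11.3, 11.7 and 10.5 hMeDIP CPM (reads in the peak relative to all counted reads of the library) in libraries 1 to 3, against 0.998, 1.06 and 0.991 in input. Its log2 ratio was 3.47 ± 0.10 (SE). Slc39a6 encodes a zinc transporter, and its peak (chr18:16540973-16542865) had 7.95, 8.93 and 7.92 CPM in hMeDIP against 0.917, 0.837 and 0.914 in input, a log2 ratio of 3.24 ± 0.11. At both genes the hMeDIP and input libraries did not overlap, as in 99.6% of all peaks. The peaks of Tm4sf19, a tetraspanin-like membrane protein, and Tecpr1, an autophagy protein, had log2 ratios of 3.38 ± 0.13 and 3.11 ± 0.13. These positions are those of the deposited list, whose build was not given in the sources used here, and they cannot be set against the GRCr8 windows base by base.

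Each hMeDIP library held 84388035 to 97792960 counted reads and each input library 86173506 to 103924317, with a median of 118 to 135 hMeDIP reads and 28 to 34 input reads per peak. hMeDIP libraries 1 and 3 differed by less than the sampling noise over peaks (chi-square per degree of freedom 0.896, against 1.09 and 1.08 for the pairs with library 2), so they were summed and counted as 1 sample. The n of hMeDIP is therefore 2. The 3 input pairs were also under 1, at 0.984, 0.978 and 0.984, with no pair apart from the others, and the inputs were kept as 3 samples, on which each exact p below rests. Marker RNA was read only for genes whose symbol is in the peak list. In the RNA of the treated cells, all 9 Schwann cell markers with such a symbol (of 10 listed, among them S100b, Sox10 and Erbb3) were at 1 CPM or more in each library. They summed to 10232 to 11534 CPM. Of the fibroblast markers with a symbol, Col1a1 was high at 9156 to 10234 CPM, while Dcn had 0 reads, Thy1 0 to 0.0356 CPM, Pdgfra at most 1.17 CPM and Pi16 1 CPM or more in each library but at most 1.57 CPM. Endothelial markers summed to at most 4.10 CPM (4 of 5 with a symbol), macrophage markers to 1.79 (4 of 5) and oligodendrocyte markers to 0.979 (2 of 3). Pecam1, Aif1 and Olig2 were not read. Mural markers reached 118 CPM, almost all from Pdgfrb. Neuronal markers reached 68.3 CPM, nearly all from Tubb3 and Nefl, and perineurial markers 426 CPM, almost all from Itgb4.

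Peaks of the treated cells were strongly enriched. Of all counted reads, 41.4%, 43.9% and 40.8% of hMeDIP libraries 1, 2 and 3 fell in peaks, against 8.58%, 8.58% and 8.43% of the input libraries. All hMeDIP libraries lay far above all input libraries. The means were 42.5% ± 1.96 (SD, n = 2) and 8.53% ± 0.0891 (SD, n = 3), an enrichment of 4.98 ± 0.230-fold. The exact two-sided permutation test gave p = 0.1, the smallest that 2 against 3 samples allow. The peaks together cover 176706099 bases, with widths from 256 to 18485 bases and a median of 639.

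Single peaks were tested with edgeR's quasi-likelihood test, scaled by all counted reads. Of the 215951 peaks, 215388 were higher in hMeDIP than in input (99.7% of all peaks) and 53 were lower (0.0245%) at an adjusted p under 0.05. Against a 2-fold difference, 202693 were higher (93.9%). In 215060 peaks (99.6%) every hMeDIP library was above every input library. The median log2 ratio was 2.14, and it ran from 1.14 at the 5th to 3.00 at the 95th percentile. A list of hMeDIP peaks holds sites where hMeDIP exceeded background, and which libraries the peaks were called on is not given, so these counts describe the list and support nothing further. With TMM factors, which set the average peak to 0, 51932 peaks were above the average peak (24.1% of those tested) and 47479 below it (22.0%).

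The deposited list itself is not uniform. It runs through the chromosomes in 2 passes, the first holding 68432 peaks (31.7%, median width 507 bases) and the second 147519 (median width 715 bases). What the passes stand for was not given in the sources used here. Enrichment was 3.81, 3.94 and 3.78-fold in hMeDIP libraries 1, 2 and 3 over the first pass, and 5.26, 5.61 and 5.17-fold over the second. The libraries of the first pass did not overlap those of the second. All 129 peaks with a negative log2 ratio, all 53 called lower and all 510 called in neither direction were in the first pass, and the smallest log2 ratio in the second pass was 0.87. Results by region, width and chromosome are therefore given within each pass too.

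Gene-body and proximal promoter peaks were the most enriched regions and gene deserts the least. The list assigns 91886 peaks to gene bodies, 103414 to other intergenic sequence, 3207 to gene deserts, 1312 to proximal promoters, 4583 to Promoter1k and 11549 to Promoter3k, the last 2 being starts out to 1000 and 3000 bases. Gene-body peaks had enrichments of 5.08, 5.40 and 5.00-fold in hMeDIP libraries 1, 2 and 3, a mean of 5.22 ± 0.257 (SD, n = 2). Proximal promoter peaks had 5.12, 5.47 and 4.98-fold, a mean of 5.26 ± 0.295. These ranges overlap, and the order of those 2 classes was not tested. Promoter1k and Promoter3k peaks were close to the whole list, at 4.90 ± 0.250 and 4.93 ± 0.241-fold, and other intergenic peaks were at 4.79 ± 0.206. Gene-desert peaks had 3.63, 3.70 and 3.65-fold, below every library of every other class.

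Against all other peaks, the log2 ratio of hMeDIP to input reads was higher by 0.12 in gene bodies and by 0.078 in proximal promoters. It was lower, at -0.10 in other intergenic peaks, -0.44 in gene deserts, -0.017 in Promoter3k and -0.024 in Promoter1k. The exact permutation p was 0.1 for each class but Promoter1k, where it was 0.2, and 0.12 to 0.2 after adjustment over the 6 classes, so none passes 0.05. Of gene-body peaks 27.8% were above the average peak and 16.4% below it, against 24.1% and 22.0% of all peaks tested. Of gene-desert peaks 8.70% were above it and 51.1% below.

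The difference between regions was smaller within the second pass and within its peaks of 500 to 1000 bases, but not within the first pass. The first pass held 65.2% of gene-desert peaks, 38.4% of other intergenic, 24.0% of gene-body and 20.4% of proximal promoter peaks, and gene-desert peaks had a median width of 440 bases against 684 in gene bodies. Within the second pass, gene deserts had 5.01 ± 0.191-fold and gene bodies 5.49 ± 0.286-fold. Within the first, the values were 2.84 ± 0.0503 and 4.21 ± 0.150-fold. Second-pass peaks of 500 to 1000 bases (the upper edge of a width class is not included) ranged from 5.05-fold in gene deserts and in Promoter3k to 5.27-fold in gene bodies, within which the proximal promoter value against the rest was -0.0067 on the log2 scale rather than above 0. First-pass peaks of the same widths still ranged from 3.18 ± 0.0189-fold in gene deserts, at -0.27 against the rest, to 4.02 ± 0.119-fold in gene bodies. Gene bodies stayed above the rest and gene deserts below it in each of these subsets.

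**Figure D1:**
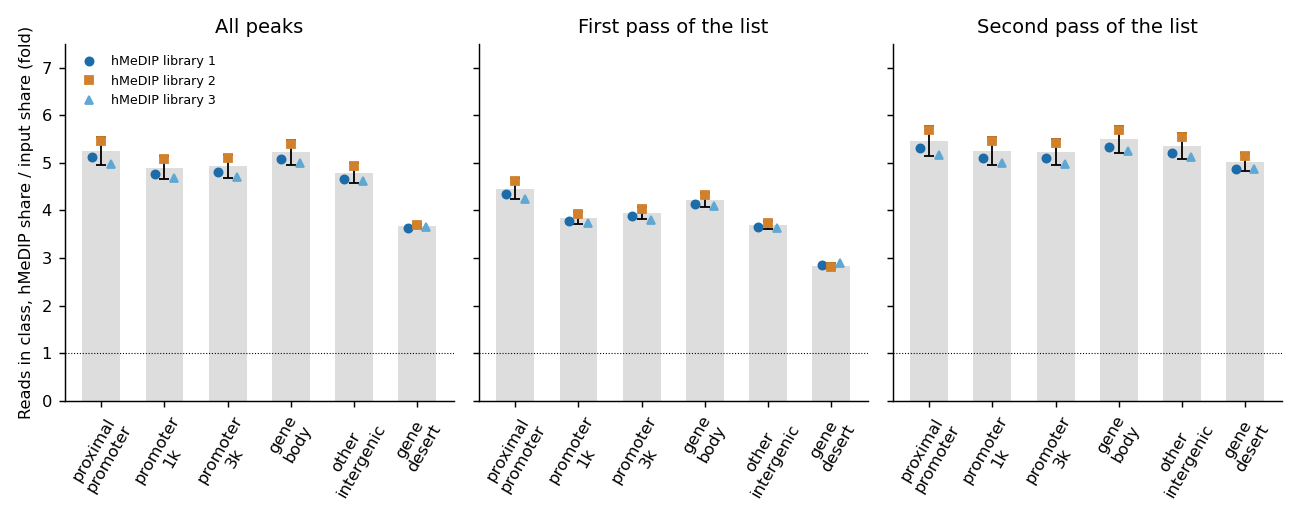
Enrichment of each region class (fold, hMeDIP share of counted reads over mean input share) for all peaks and for each pass of the deposited list; bars are means over 2 hMeDIP samples with SD (libraries 1 and 3 counted as 1), points are the 3 libraries, and the dotted line marks no enrichment. Gene deserts are lowest in each panel, at 3.67-fold over all peaks, 2.84-fold in the first pass and 5.01-fold in the second.

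Around gene starts the enrichment was nearly level. In steps of 250 bases out to 3000 bases on either side, enrichment lay between 4.72 and 5.03-fold, except in the 2 steps that touch the start, where 649 peaks centred upstream had 5.25 ± 0.302-fold and 661 centred downstream 5.27 ± 0.289-fold. Peaks upstream of starts numbered 8827 and those downstream 8615, with 4.92 ± 0.244 and 4.97 ± 0.251-fold. Within gene bodies, enrichment was 5.14 to 5.28-fold for peaks 3000 to 200000 bases from the start. It was 5.06 ± 0.216-fold for the 6963 peaks 200000 to 500000 bases away and 4.66 ± 0.156-fold for the 927 farther still, which also had narrower peaks (median 548 bases).

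Enrichment followed peak width step by step. Peaks under 500 bases had 3.64, 3.74 and 3.60-fold in hMeDIP libraries 1, 2 and 3, and peaks of 500 to 1000 bases 4.69, 4.94 and 4.62-fold. The 42659 peaks of 1000 to 2000 bases had 5.46 ± 0.288-fold, the 8555 of 2000 to 5000 bases 6.13 ± 0.357-fold and the 259 of 5000 to 10000 bases 7.14 ± 0.451-fold. The 19 peaks of 10000 bases and over had 7.93, 8.57 and 7.70-fold. In every class the 3 hMeDIP libraries lay wholly above those of the next narrower class. The exact permutation p of each class against the rest was 0.1, the smallest possible. The share of peaks above the average peak went from 5.46% under 500 bases to 24.7%, 43.5%, 68.7% and 96.1% in the next classes, and all 19 of the widest peaks were above it.

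The same order was found within gene bodies, from 3.97 ± 0.125-fold under 500 bases to 8.26 ± 0.524-fold over 17 peaks of 10000 bases and over, and within each pass of the list. In the first pass it ran from 2.81 ± 0.00992 to 8.31 ± 0.514-fold (2 peaks in the widest class) and in the second from 4.58 ± 0.193 to 8.18 ± 0.535-fold. Width is set by peak calling on hMeDIP signal, so enrichment and width are not independent measures, and the part of calling in this order was not tested. Gene bodies held 37.1% of peaks under 500 bases and 55.5% of those of 2000 to 5000 bases.

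**Figure D2:**
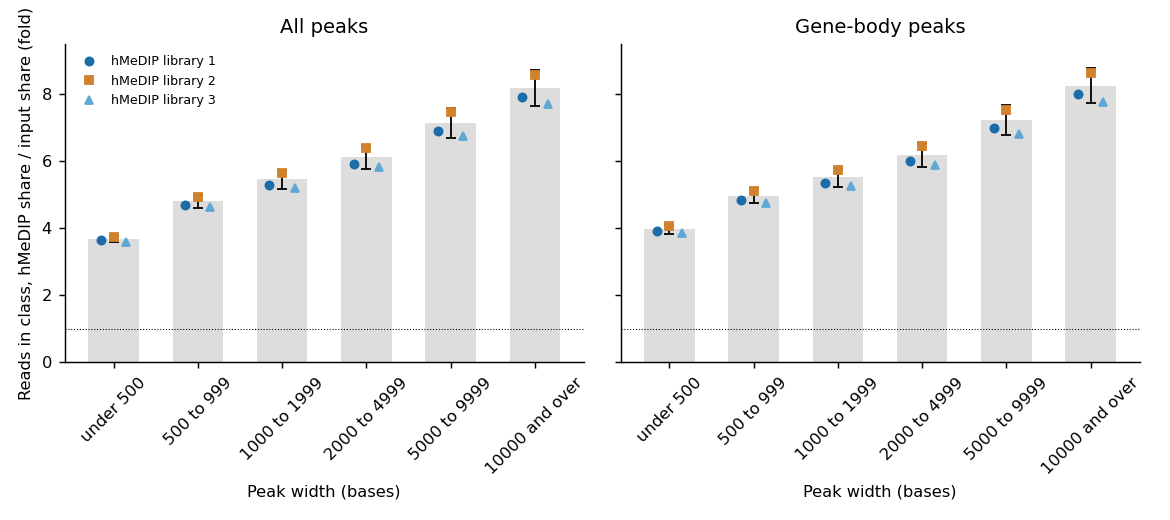
Enrichment (fold, hMeDIP share of counted reads over mean input share) by peak width class, for all peaks and for gene-body peaks; bars are means over 2 hMeDIP samples with SD and points the 3 libraries. The mean goes from 3.68-fold under 500 bases to 8.19-fold at 10000 bases and over, and from 3.97 to 8.26-fold in gene bodies.

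The X chromosome carried few and weakly enriched peaks. It held 2835 peaks, 68.5% of them in the first pass. Their enrichment was 3.48, 3.59 and 3.47-fold in hMeDIP libraries 1, 2 and 3, against 4.87, 5.16 and 4.80-fold on autosomes, so the groups did not overlap. The log2 difference was -0.50 (exact permutation p = 0.1). It was smaller but of the same sign in the first pass (-0.40), in the second pass (-0.22) and in second-pass peaks of 500 to 1000 bases (-0.17). Among peaks of 500 to 1000 bases, X input per kilobase was 1.07 times that of autosomes other than chromosome 1, while X hMeDIP was 0.831 times. By pass, the input difference was smaller. First-pass peaks of these widths had 0.558 input CPM per kilobase on X and 0.545 on all autosomes, second-pass peaks 0.4738 and 0.4715. Their hMeDIP CPM per kilobase were 1.72 on X against 2.08 in the first pass and 2.18 against 2.44 in the second. Autosomes ranged from 4.76-fold on chromosome 1 to 5.34-fold on chromosome 12.

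Chromosome 1 held a stretch in which input itself was raised. Over peaks of 500 to 1000 bases starting between 70 and 170 Mb, input reads per kilobase were 1.35, 1.33 and 1.33 times the mean of the other autosomes in input libraries 1, 2 and 3. In steps of 10 Mb with at least 50 such peaks, all 10 steps of the stretch had 1.30 to 1.45 times that mean, and the other 256 autosomal steps 0.964 to 1.13 times, so the 2 sets did not overlap. The step from 60 to 70 Mb had too few peaks, so the lower edge was not seen. hMeDIP in the same 3497 peaks was 1.17, 1.15 and 1.15 times that of other autosomes. Enrichment there was 4.19 ± 0.149-fold, against 4.79 ± 0.205 on the rest of chromosome 1 and 4.85 ± 0.209 on the other autosomes. Mag and Prx lie in this stretch, and their log2 ratios below are read against this higher input. The edges of the stretch and the enrichment in it were noticed in these data and have no independent check.

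**Figure D3:**
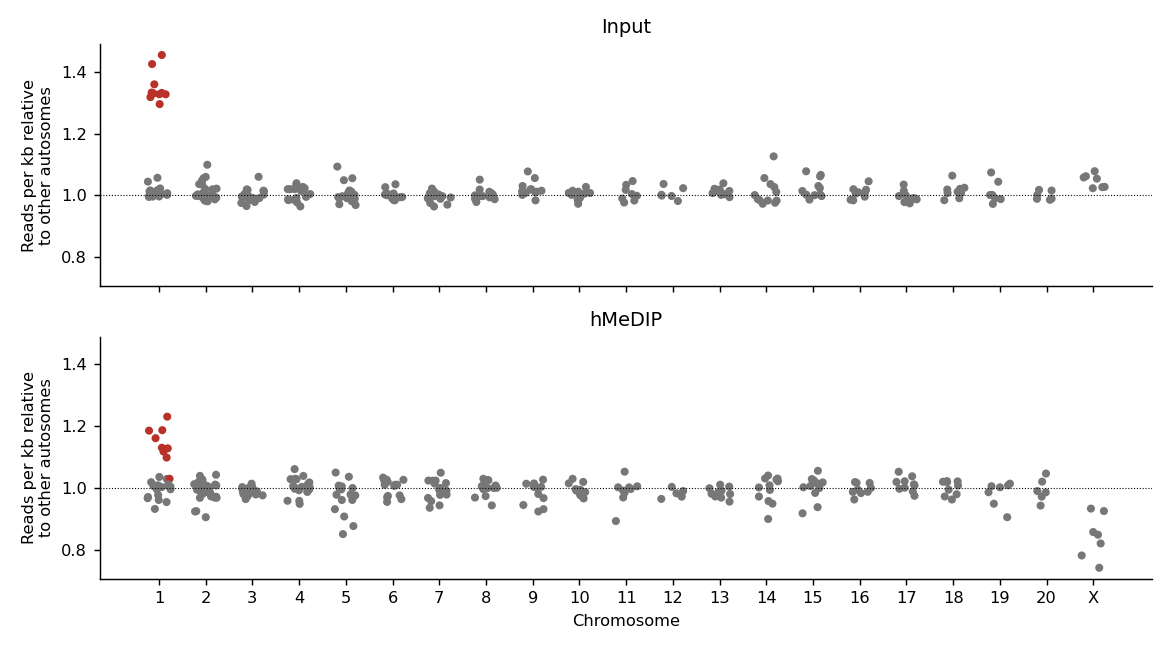
Reads per kilobase of peak (peaks of 500 to 1000 bases) in 10 Mb steps of each chromosome, relative to autosomes other than chromosome 1, as the mean of the 3 input libraries (top) and the 3 hMeDIP libraries (bottom); 1 point is 1 step and red points are the 10 steps of the chromosome 1 stretch. Red input points lie at 1.30 to 1.45, grey autosomal ones at 0.964 to 1.13, and X lies above 1 in input but below 1 in hMeDIP.

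Of the 10 most enriched single peaks with a symbol, 8 were in gene bodies and 2 were Promoter3k peaks, and 91886 of the 109330 peaks with an assigned gene are gene-body peaks. Among peaks with at least 60 input reads and no overlap between libraries, the highest was in Tns3, a focal-adhesion tensin, at chr14:88792296-88793196, with 6.23, 6.29 and 5.92 CPM in hMeDIP against 0.279, 0.433 and 0.253 in input. Its log2 ratio was 4.25 ± 0.13. Next came peaks in Fam160b1 (4.15), the adaptor gene Bcar3 (4.05) and the neural cell adhesion gene Ncam1 (4.05), then Ndufb7, Glo1, Kif21a, F13a1 and Tbc1d16 at 3.93 to 3.97. The Promoter3k peak of the locus AABR07054597.1 had 4.06. One intergenic peak (chr18:29303531-29304310) was higher still, at 4.31 ± 0.14. The highest gene-desert peak (chr19:47625599-47626544) reached 3.94 ± 0.13, with 5.31, 5.60 and 4.92 CPM in hMeDIP against 0.279, 0.375 and 0.369 in input.

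The few depleted peaks were narrow. Of the 53 called lower, 45 were under 500 bases, a class that holds 32.2% of all peaks. All 53 were in the first pass, where 33425 of 68432 peaks were under 500 bases. Gene bodies hold 42.5% of all peaks, OtherIntergenic 47.9% and gene deserts 1.49%. In the first pass these classes had 22070, 39683 and 2092 peaks. Of the 53 called lower, 29 were in gene bodies and 17 were intergenic. The lowest with at least 60 input reads was in Itgb8, an integrin subunit, at chr6:147162873-147163259, with 9 hMeDIP reads over 3 libraries against 73 input reads. Its log2 ratio was -2.87 ± 0.40 (edgeR adjusted p = 1.05e-12). Peaks in Mad1l1, Grik2, Itga9 and at the Entpd2 promoter followed at -2.12 to -1.76.

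The 5 widest peaks lay in the bodies of Socs5 (18485 bases), Zeb2 (13054), Pxn (12795), Vps37b (12612) and Sh3pxd2b (12501). Socs5 encodes a suppressor of cytokine signalling, and its widest peak had 71.7, 80.4 and 71.6 CPM in hMeDIP against 7.80, 7.82 and 8.22 in input. Zeb2, a repressor that Schwann cells need to differentiate, had 41.2, 44.5 and 42.1 CPM against 6.02, 6.25 and 5.90. The log2 ratios of the 5 peaks were 2.83 in Zeb2 and 3.11 to 3.41 in the others.

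At the level of genes, reads were summed over gene-body peaks. Of 11717 genes with such a peak, 11707 were higher in hMeDIP than in input (99.9%), 11355 by more than 2-fold (96.9%) and 0 were lower in edgeR's test, or by DESeq2, at an adjusted p under 0.05. A gene had a median of 3 gene-body peaks, 2929 genes had 1, and the peaks covered a median of 8.70% of the longest transcript's span. The median log2 ratio was 2.24. With TMM factors, 3352 genes were above the average gene (28.6%) and 3471 below it (29.6%).

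Among genes with at least 300 input reads and a symbol other than a locus code, the 10 highest had log2 ratios of 3.16 to 3.56. Bach1, a haem-responsive repressor, had the highest log2 ratio within these limits, 3.56 ± 0.09. It came from 1 peak with 11.2, 13.2 and 11.6 CPM in hMeDIP against 0.963, 1.22 and 0.914 in input. Pmepa1, a feedback inhibitor of TGF-beta signalling, had 3.33 ± 0.06, with 7 peaks over 87.3% of its span. Atf3, a stress-induced transcription factor, had 3.33 ± 0.07, and Fosl2, an AP-1 subunit, 3.32 ± 0.06. Vps37b, Rhou, Scd2 (a fatty acid desaturase), Pxn (the focal-adhesion protein paxillin), Socs5 and Dusp10 (a phosphatase of stress kinases) followed at 3.16 to 3.24. In Scd2, a single peak of 11283 bases took in 86.4% of the gene. The widest peak of these 10 genes had a median of 10602 bases, against 1561 over all such genes.

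Within the same limits, the 10 lowest genes had narrow peaks and at most 1.60 CPM of RNA in any treated library. The 10 highest genes had at least 44.0 CPM. Gucy1a2, a subunit of the nitric oxide receptor, had the lowest log2 ratio within these limits, 0.71 ± 0.11. Eps8l1 (0.90), Pak7 (0.97), the ephrin receptor Epha6 (0.98) and Adamts16 (1.01) followed. Map7d2, the mast cell protease Mcpt2, Nol4, Scml2 and Cyp2b3 were at 1.07 to 1.14. Map7d2 and Scml2 are on X, and Eps8l1 and Cyp2b3 in the raised stretch of chromosome 1. The widest peak of any of the 10 was 860 bases. All of their peaks were in the first pass of the list, except 1 of the 4 in Map7d2.

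The genes with the most gene-body peaks, which were singled out after their values were seen, had ratios moderately above the median. Rbms3, an RNA-binding protein gene, had 262 peaks, the cadherin Cdh13 240, the glypican Gpc6 186, the phosphatase Ptprm 183 and the kinase Cdk14 152. Their log2 ratios lay between 2.39 and 2.47, at percentiles 68.3 to 77.6 of all genes. All 5 were above the average gene, as were 28.6% of all genes tested. They held 20215 to 40159 input reads each, and the part of read depth in these calls was not tested.

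Among myelin genes more were above the average gene than below it. Of 19 listed myelin genes, 16 had a gene-body peak, 7 were above the average gene (28.6% of all genes tested) and 2 below it (29.6%), with a median log2 ratio of 2.37 beside 2.24 for all genes. Gal3st1, which makes the myelin lipid sulfatide, had 2.72 ± 0.12, Pmp22, a tetraspan myelin protein, 2.65 ± 0.06 over 15 peaks, and Mbp, which compacts the cytoplasmic face of myelin, 2.63 ± 0.06 over 33 peaks. Mag, the adhesion molecule of the inner myelin wrap, had 2.57 ± 0.13 with RNA at no more than 0.113 CPM, and Gldn, which clusters channels at nodes, 2.41 ± 0.07.

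Prx stood below the average gene. This scaffold of the outer myelin wrap had 8.54, 9.01 and 8.48 CPM in hMeDIP against 2.32, 2.25 and 2.19 in input, a log2 ratio of 1.95 ± 0.08, although 1 of its 4 peaks reached 2.90. It lies in the chromosome 1 stretch with raised input.

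In repair and Schwann cell identity genes, peaks covered a median of 55.9% and 28.0% of the longest transcript's span, beside 8.70% over all genes, 33.3% in TGF-beta, 31.1% in promyelinating and 26.8% in basal lamina genes. Ngfr, the low-affinity neurotrophin receptor of immature and repair Schwann cells, had 57.2, 62.5 and 54.6 CPM in hMeDIP against 7.86, 7.54 and 7.29 in input, with 3 peaks over 98.2% of the gene and a log2 ratio of 2.97 ± 0.06. S100b, a calcium-binding glial marker, had 2.74 ± 0.07 and the neuregulin receptor Erbb3 2.73 ± 0.06. Fgf5, a growth factor gene, had 2.83 ± 0.06 over 6 peaks, and Hbegf, an EGF-family ligand, 2.82 ± 0.07. Of the 11 of 16 repair genes with a gene-body peak, 8 were above the average gene and 1, Vim, below it at 1.97 ± 0.08, with a list median of 2.63. Of the 10 of 13 identity genes with one, 6 were above and 3 below, with a median of 2.43. Over all genes tested, 28.6% were above and 29.6% below.

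The master regulators Sox10 and Egr2 did not stand above the average gene. Sox10, which specifies the lineage, had 7.37, 7.60 and 6.91 CPM in hMeDIP against 1.54, 1.85 and 1.78 in input, a log2 ratio of 2.08 ± 0.09, just below the average gene (edgeR adjusted p = 0.0338). Egr2, which drives myelination, had 1 gene-body peak at 2.05 ± 0.15, which did not pass the test against the average gene (edgeR adjusted p = 0.286), and a stronger Promoter3k peak at -2175 bases from its start (2.73 ± 0.14). Pou3f1, the promyelinating POU factor, had no gene-body peak and 1 Promoter3k peak (chr5:142640551-142641475) at 3.10 ± 0.14. Of the 15 of 18 promyelinating genes with a gene-body peak 10 were above the average gene and 2 below (28.6% and 29.6% of all genes tested). The neuregulin receptor Erbb2 at 2.96 ± 0.07 and Zeb2 at 2.75 ± 0.05 led this list. Sla, a Src-like adaptor, had 2.08 ± 0.08.

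**Figure D4:**
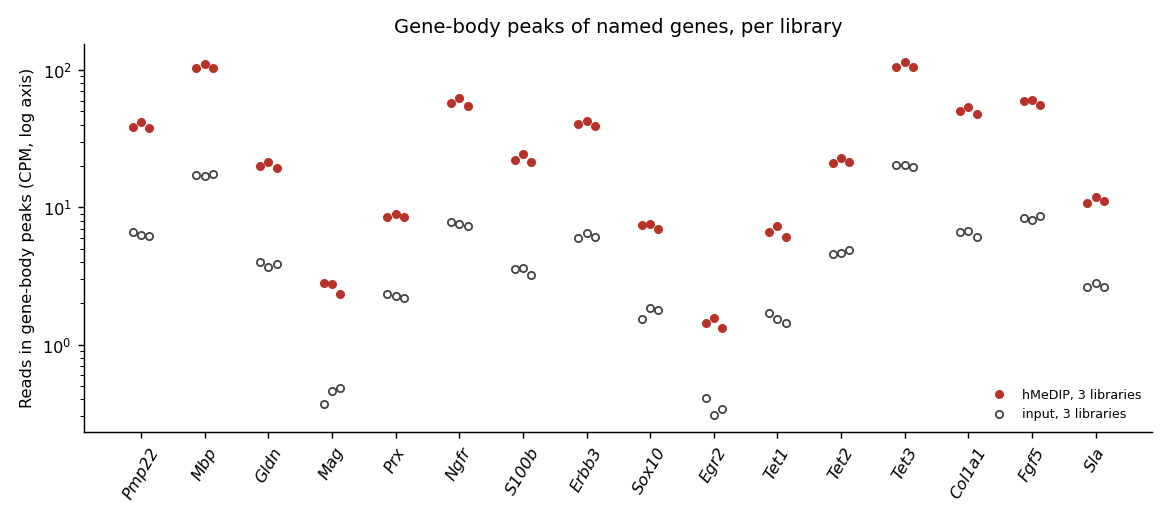
Reads in gene-body peaks per library (CPM of all counted reads, log axis) for named myelin, Schwann cell, TET, matrix and growth factor genes; filled points are the 3 hMeDIP libraries and open points the 3 input libraries. hMeDIP lies above input in each gene shown, with the smallest gap relative to input in Egr2, where the closest values are 1.33 and 0.406 CPM.

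Of 18 listed genes of cytosine oxidation and methylation, 11 had a gene-body peak, with a median of 2.34. Of these, 5 were above the average gene and 1 below it (28.6% and 29.6% of all genes tested). Tet3 had 37 gene-body peaks with 105, 115 and 105 CPM in hMeDIP against 20.3, 20.4 and 19.8 in input, a log2 ratio of 2.44 ± 0.06, above the average gene. Tet1 (2.13 ± 0.09, 6 peaks) and Tet2 (2.22 ± 0.07, 15 peaks) did not pass the test against it, with edgeR adjusted p-values of 0.122 and 0.477. Dnmt1, the maintenance methyltransferase, had 2.66 ± 0.08 and the de novo enzyme Dnmt3a 2.52 ± 0.06. Idh2, a mitochondrial isocitrate dehydrogenase in the chromosome 1 stretch, had the lowest ratio of the list, 1.71 ± 0.09.

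Matrix, basal lamina and TGF-beta genes were more often above the average gene than below it, beside 28.6% above and 29.6% below over all genes tested. These lists had medians of 11, 12 and 17 gene-body peaks per gene, against 3 over all genes. Axon guidance, neuronal, growth factor and promyelinating genes had medians of 18, 11.5, 10 and 9. The part of read depth in the calls of any list was not tested. Col1a1, a fibrillar collagen chain, had 50.7, 54.1 and 47.8 CPM in hMeDIP against 6.61, 6.73 and 6.12 in input, a log2 ratio of 2.99 ± 0.06, and its 3 peaks covered 87.3% of the gene. Thbs1 had 2.87 ± 0.08 and Fn1 2.72 ± 0.07, whereas the type VI collagen chain Col6a2 had 1.45 ± 0.10. Of the 18 of 20 fibrillar matrix genes with a gene-body peak 10 were above and 3 below, with a median of 2.41. Of the 16 of 18 basal lamina genes with one 10 were above and 2 below, with a median of 2.56, from Dag1 (dystroglycan, 2.76 ± 0.08), Lama5 and Lama4 at the top to Lama1 (1.60 ± 0.07). Of the 17 of 18 TGF-beta genes with one 13 were above and 3 below, with a median of 2.48. Pmepa1, the inhibitory Smad7 (2.74 ± 0.06) and the receptor Tgfbr2 (2.74 ± 0.06) led, and the ligand Bmp4 was lowest (1.63 ± 0.18).

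The other lists had medians of 2.14 to 2.43. Their counts stand beside 28.6% above and 29.6% below the average gene over all genes tested. Growth factor signalling genes had 9 above and 3 below of 17 (median 2.43) and axon guidance genes 12 above and 6 below of 23 (2.34), and all listed genes of both had a gene-body peak. HIF targets and hydroxylases had 6 above and 2 below of the 13 of 18 with a gene-body peak (2.32), with the oxygen sensor Egln3 highest at 2.83 ± 0.09. Counted the same way, glycolysis genes had 3 above and 1 below among 10 of 17 (2.37). Hox genes, taken only from symbols in the peak list, had 3 above and 0 below among 6 of 15 (2.42). Cell cycle genes had 3 above and 4 below among 12 of 20 (2.23), and sarcomere genes 3 above and 5 below among 14 of 26 (2.14).

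Genes of neurons and chemosensory receptors were low. Of the 20 of 22 neuronal channel and synapse genes with a gene-body peak, 14 were below the average gene and 2 above it. The list's median was 2.03. Over all genes tested, 29.6% were below and 28.6% above. Rbfox3, a neuronal splicing factor, was lowest at 0.89 ± 0.22, and the calcium channel Cacna1a (2.44 ± 0.06) and the NMDA receptor subunit Grin2b (2.42 ± 0.05, 100 peaks) were highest. By the highest single peak of each gene, the list's median was 0.14 above that of all genes rather than below it. These genes had a median of 11.5 gene-body peaks, against 3 over all genes. The part of peak number in the highest-peak value was not tested. Gene-body peaks are centred more than 3000 bases from a start, and 11717 of the 16140 genes named in the peak list had one. Gene length was not accounted for in such counts. Of 86 olfactory receptor genes in the peak list 12 had a gene-body peak, 11 below the average gene and 0 above, with a median of 1.29. Of 22 vomeronasal receptor genes in it 14 had one, 13 below and 0 above, with a median of 1.37. Their gene-body peaks were narrow, at a median of 432.5 and 369.5 bases, and reads of such near-identical gene copies are uncertain. Protocadherins had 4 below and 2 above among 9 of 11 (median 2.13), and by the highest single peak they too were 0.14 above all genes. Lymphocyte genes had 5 below and 0 above among 11 of 16 (2.18), and ribosomal protein genes 3 below and 0 above among 5 of 18 (1.90). The protocadherin and ribosomal protein lists, like those of the receptors, were taken only from symbols in the peak list.

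**Figure D5:**
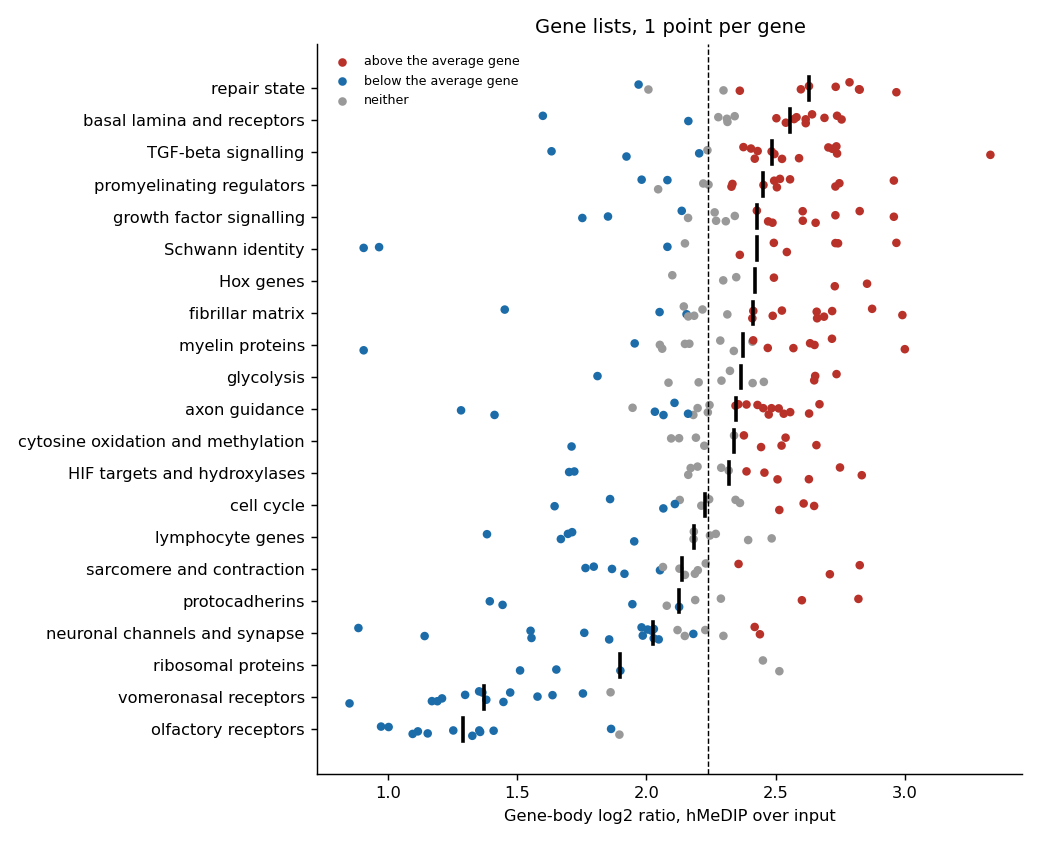
Gene-body log2 ratio of hMeDIP over input for each gene of 21 lists (1 point per gene), with each list's median as a black bar and the median of all 11717 genes as a dashed line at 2.24; red genes are above the average gene and blue ones below it (TMM fit, adjusted p under 0.05). List medians go from 1.29 in olfactory receptors to 2.63 in repair state genes.

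Genes with RNA more often held a gene-body peak than genes without. Of the 11516 gene identifiers with at least 1 CPM in each treated RNA library, 67.0% had a gene-body peak, against 42.8% of 7661 in between and 5.42% of 13706 with no read. Gene length was not accounted for, since identifiers without a peak have no span here. Over their gene-body peaks enrichment was 5.35 ± 0.270-fold, 4.57 ± 0.187-fold and 4.36 ± 0.173-fold in that order. The expressed class was higher than the silent one by 0.30 on the log2 scale (exact permutation p = 0.1). In peaks of 500 to 1000 bases the difference was 0.24, in the first pass 0.44, in the second pass 0.10, and 0.050 in second-pass peaks of 500 to 1000 bases.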

How the data were processed

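5hmC capture (hMeDIP) and genomic input libraries of vitamin C treated rat Schwann cells were compared over the merged peaks. The authors deposited whole-number read counts per peak and per gene. Per the submitters' processing notes, CASAVA 1.4, Trim Galore, STAR, BWA and HTSeq were used, without their roles. The genome build, the peak caller, its thresholds, the libraries it was run on and the rule for merging were not given in the sources used here, so positions are printed as the list gives them. Counts outside peaks, held in rows that name no peak (56.1 to 59.2% of hMeDIP and 91.4 to 91.6% of input reads), entered the library sizes and no test.

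Peaks, and gene-body peaks summed by gene symbol, were tested with edgeR 4.0.16 (quasi-likelihood F test, filterByExpr, R 4.3.3, limma 3.58.1), with library size set to all counted reads and Benjamini-Hochberg adjustment over all peaks or genes at 0.05. A test against a 2-fold difference used glmTreat. Calls above and below the average peak or gene came from the same test with TMM factors. Class folds came from summed reads and were tested by exact two-sided permutation over samples. hMeDIP replicates 1 and 3 were summed where a test counted samples. DESeq2 1.42.0, other scalings, no filter, a replicate block and leaving out each library were tried. Same-numbered hMeDIP and input samples did not deviate together (correlations of 0.0125, 0.0219 and 0.0136), so no block was used. CPM of RNA are relative to reads in genes.

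Members, gene lists and tests were chosen with earlier results of these data known. Named peaks had at least 60 input reads. These were the 10 highest with a symbol, the 2 highest per region, the 5 widest and the 5 lowest called lower. Named genes were the 10 highest and 10 lowest with at least 300 input reads and a symbol other than a locus code. Up to 3 highest and 1 lowest per list were added, with a fixed set of myelin, Schwann cell, TET and other genes. Some genes that the rule names are not reported here. Summaries and figures used matplotlib 3.10.9, scipy 1.17.1, pandas 2.3.3 and numpy 2.4.6 under Python 3.11.15.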

Additional observations from a re-analysis of the deposited data

How the results depend on the processing

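The direction against input rests on scaling by all counted reads. Scaled by reads in peaks, 37463 peaks were higher and 67074 lower, and 2045 genes higher and 5068 lower. With TMM factors the counts were 51932 and 47479 peaks and 3352 and 3471 genes. Both settings read relative to the list itself. DESeq2 called 30 peaks lower and the 2-fold test 13. Leaving out each library in turn gave 215101 to 215296 peaks higher, 41 to 54 lower and 11700 to 11705 genes higher. With a replicate block and 3 separate hMeDIP libraries, 215405 peaks were higher and 52 lower, and 11708 genes were higher and 0 lower. Other values changed sign, and the cause was not tested. On the log2 scale against the rest, proximal promoters were at -0.0067 in second-pass peaks of 500 to 1000 bases. Promoter3k was at 0.027 in the first pass and 0.029 by the median over peaks, and the width class of 500 to 1000 bases at 0.14 by that median. By the highest peak of each gene, neuronal genes were 0.14 and protocadherins 0.14 above all genes. Cell cycle genes were 0.016 above with DESeq2 and -0.12 to 0.055 when each library was left out, and Tet2 was at -0.038 to 0.019. On chromosome 1, input in the stretch was 1.32 times that of other autosomes in the first pass. hMeDIP there was 1.18 times it in the first pass and 1.175 times over peaks of all widths. With G plus C in place of CG, the share of promoters with a proximal peak differed by 3.43 percentage points between the groups of 5 with the least and the most, against 5.53 with CG. Subsets by pass and the chromosome 1 stretch were chosen after seeing the data. Median input depth of 28 to 34 reads per peak limits single peaks, and 2 against 3 samples cannot give an exact p under 0.1.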

Other observations

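Peaks assigned to noncoding genes were also enriched in the treated cells. The 3807 peaks assigned to long intergenic noncoding RNA genes had 4.87, 5.16 and 4.80-fold in hMeDIP libraries 1, 2 and 3, a mean of 5.00 ± 0.233 (SD, n = 2). The 554 peaks assigned to miRNA genes had 5.17 ± 0.273-fold and the 239 assigned to pseudogenes 5.11 ± 0.226-fold. Peaks of protein-coding genes, 102417 in all, had 5.19 ± 0.256-fold. The lowest of the classes with over 100 peaks were small nuclear RNA genes at 4.76-fold and ribosomal RNA genes at 4.77-fold, whose reads are uncertain because near-identical copies exist. These differences were not tested.

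The highest proximal promoter peak was at the locus Rn60_3_0106.2, with a log2 ratio of 3.60 ± 0.11. In Promoter1k the highest were U2 at 3.80 ± 0.13, a small nuclear RNA gene with many copies, and Itgax, an integrin subunit of myeloid cells, at 3.69 ± 0.12. The Itgax peak had 5.52, 6.14 and 5.29 CPM in hMeDIP against 0.406, 0.423 and 0.496 in input. The highest peaks of each class were picked among peaks without overlap between libraries, as 99.6% of all peaks are.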
